A study of Mus musculus with 2 samples.

Results

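The genes described here are small nuclear RNA (snRNA) genes, meaning genes whose transcript carries the biotype snRNA in the GENCODE M21 annotation and which reached a TPM value of 1 or more in the gene tables of both libraries. TPM, the unit of the gene tables, is a relative abundance per length of transcript. The genes were thus chosen by their TPM. Of the 55536 genes in the tables, 1383 were annotated as snRNA genes and 36 of these met the rule. Their levels are therefore given as a description and were not tested. Both libraries were made from total RNA of left cerebral cortex tissue. The mice were B6CASTF1/J females aged 14 days, an F1 cross of C57BL/6J with CAST/EiJ, and the labels name no engineered allele and no treatment. Ribosomal RNA was depleted and the libraries were made with ERCC spike-ins from 300 ng of RNA each. The 2 libraries form 1 group with no second condition. The number of mice behind a library is unclear from the labels, so the spread between libraries may be technical.

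snRNAs are short noncoding RNAs that work in the nucleus as ribonucleoprotein particles. In the major spliceosome, U1 pairs with the 5′ splice site of an intron, U2 pairs with the branch point, and U4, U5 and U6 join as a preassembled particle before U4 leaves and U6 pairs with U2 in the active centre. U11 and U12 take the places of U1 and U2 in the minor spliceosome, which removes a rare class of introns, and U7 guides the 3′ end cutting of histone messenger RNAs. All of these but U6 are made by RNA polymerase II and carry a ring of Sm proteins, in U7 mixed with Sm-like ones. U6 is made by RNA polymerase III and binds the LSm ring. In mouse brain a deletion in a U2 gene, Rnu2-8, is known to cause loss of cerebellar neurons.

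Only 5 of the 36 genes have a symbol that shows a family: Rnu1a1 and Rnu1b6 for U1, Rnu2-10 for U2, Rnu11 for U11 and Rnu12 for U12. The other 31 carry a predicted-gene symbol that starts with Gm. No symbol for U5, U6 or U7 met the rule, and none of the annotated snRNA genes has a U4 symbol that could meet it. Global alignment of the annotated transcripts placed 15 of the genes at 80% identity or more to a named U1 gene, 11 to Rnu2-10, and left 8 with no close named snRNA. Without a named U4 gene, the alignment could not place a gene in U4. Rnu11 and Rnu12 stood alone. The 36 genes hold 23 distinct sequences, since 18 of them belong to 5 groups of identical copies.

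The sequences that carry these groupings are those of U1 and U2, because the results turn on which copies a read can and cannot tell apart. They are taken from the GENCODE M21 transcripts, written as DNA letters from 5′ to 3′, on assembly mm10. Rnu1a1 lies at chr11:87422867-87423030 on the plus strand and Rnu1b6 at chr3:96460024-96460189 on the minus strand. Rnu2-10 lies at chr11:101658238-101658428 and Gm23472 at chr1:72236946-72237136, both on the plus strand. In the U1 sequences capitals mark ACTTACC, which pairs with the 5′ splice site, and TTTGTGG, the letters of the Sm site. In the U2 sequences they mark GTAGTA, which pairs with the branch point, TTTTTGG, the letters of the Sm site, and in Gm23472 also the base that differs from Rnu2-10.
Rnu1a1: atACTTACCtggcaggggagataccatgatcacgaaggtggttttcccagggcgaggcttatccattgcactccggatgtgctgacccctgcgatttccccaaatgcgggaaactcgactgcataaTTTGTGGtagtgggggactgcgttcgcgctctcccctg
Rnu1b6: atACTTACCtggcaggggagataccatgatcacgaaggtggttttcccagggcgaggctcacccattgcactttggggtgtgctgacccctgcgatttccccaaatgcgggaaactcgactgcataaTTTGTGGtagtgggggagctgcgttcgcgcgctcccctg
Rnu2-10: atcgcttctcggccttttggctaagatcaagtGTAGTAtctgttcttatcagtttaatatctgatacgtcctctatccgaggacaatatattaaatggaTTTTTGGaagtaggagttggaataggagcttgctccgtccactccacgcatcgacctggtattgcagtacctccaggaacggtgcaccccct
Gm23472: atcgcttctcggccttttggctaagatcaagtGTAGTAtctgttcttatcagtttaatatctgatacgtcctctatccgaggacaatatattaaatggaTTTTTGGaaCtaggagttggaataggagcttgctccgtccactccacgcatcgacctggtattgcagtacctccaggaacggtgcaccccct
Positions are counted from 1 at the 5′ end, and a difference is written with the letter of the gene compared with first. The single difference of Gm23472 from Rnu2-10 is G109C. Rnu1a1 is 164 nucleotides long, Rnu1b6 is 166, and both U2 forms are 191. ACTTACC was present in all 15 U1-close genes, and in 4.7% of all 1383 annotated snRNA genes. GTAGTA was present in all 11 U2-close genes, in 2 of the other members, and in 3.69% of all annotated snRNA genes. TTTTTGG was in all 11 U2-close genes and 2.89% of all, and TTTGTGG was in all 15 U1-close genes and 6.65% of all. These shares describe letters on the transcribed strand. On the opposite strand none of the members held any of the 4 motifs. Of all annotated snRNA genes, 0.145% held ACTTACC there, 1.16% GTAGTA, 0.362% TTTTTGG and 0.362% TTTGTGG.

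Together the 36 genes took 35242.09 expected counts in replicate 1 and 30619.73 in replicate 2, which is 0.106% and 0.0956% of all gene counts. In TPM they held 2.16% and 1.97% of the gene total, because TPM divides by an effective length and these RNAs are short. All 1383 annotated snRNA genes together held 2.17% and 1.97%, so the 36 genes carried nearly all of the snRNA signal. Single genes ranged between 1.64 TPM and 2513.43 TPM. The levels fell into a high set of 21 genes with a mean over 50 TPM, 19 of them close to U1 or U2, and a low set of 15 genes.

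**Figure D1:**
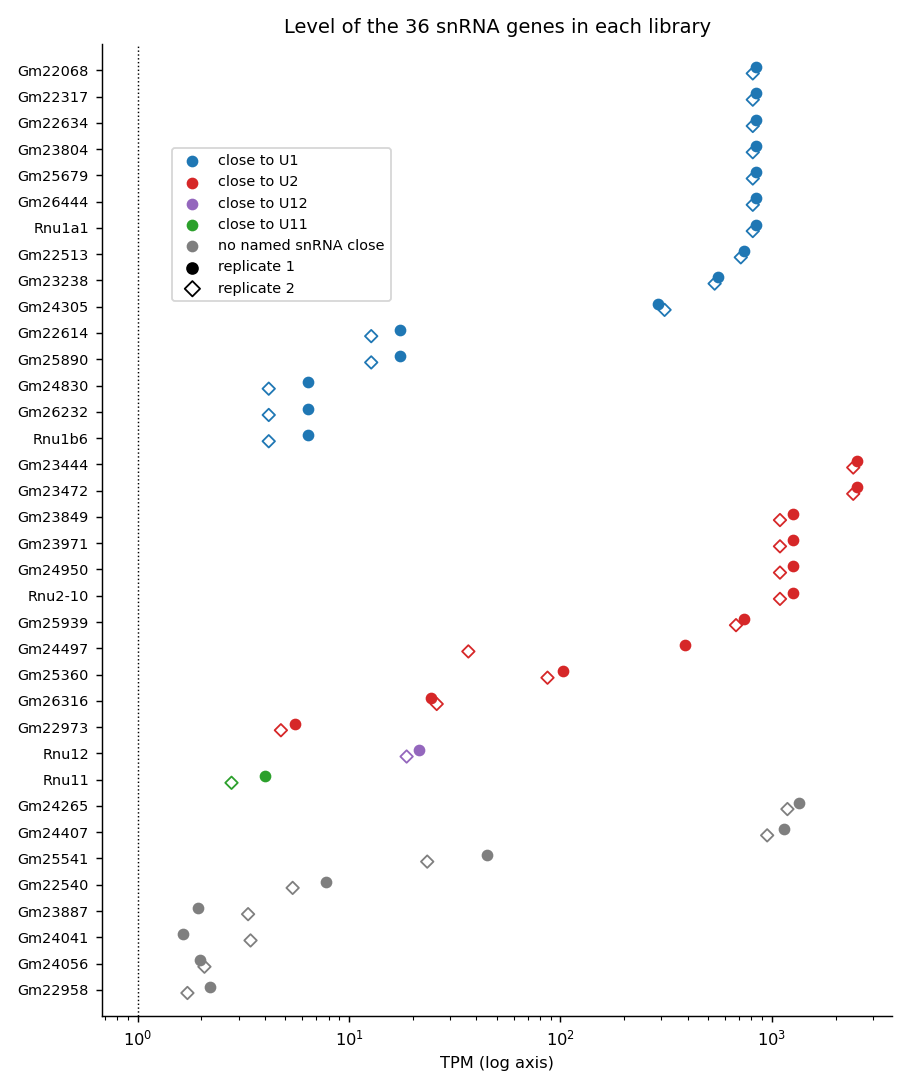
TPM (log axis) of each of the 36 snRNA genes in replicate 1 (filled circles) and replicate 2 (open diamonds), ordered by closest named family and mean level; the dotted line is the threshold of 1 TPM. Copies of identical sequence share a value, the highest being Gm23444 and Gm23472 at 2513.43 and 2425.31 TPM, and Gm24497 is the gene with the widest gap between libraries, at 386.19 and 36.67 TPM.

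U1 is the RNA that recognises the start of most introns. Its 15 genes summed to 7552.24 TPM in replicate 1 and 7282.34 TPM in replicate 2, a mean of 7417 ± 191 TPM (SD, n = 2). Most of this came from 1 sequence: Rnu1a1 and 6 identical copies (Gm22068, Gm22317, Gm22634, Gm23804, Gm25679 and Gm26444) were each listed at 845.05 and 812.12 TPM, 5915.35 and 5684.84 TPM in sum. The equal values show that the deposited quantification divided the shared reads evenly, so the sum is a measurement of the sequence and the single values are not measurements of a locus. The authors' posterior SD of the count shows the same, at 943.19 reads for an expected count of 1178.75 for Rnu1a1 in replicate 1.

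Another 3 U1 genes could be told from Rnu1a1 by their letters. Gm22513 differs by T60C and was at 738.79 and 712.74 TPM. Gm23238, the only one on chromosome 19, differs at 4 positions, G12A, A23T, C153T and C160A, and was at 554.86 and 536.02 TPM. Gm24305 differs by A26G and was at 289.07 and 310.77 TPM. The posterior SD was 0.136% of the count for Gm22513 in replicate 1, 12.1% for Gm23238 and 17.8% for Gm24305, far below that of the identical copies. In these 3 genes the libraries lay close together, and the order Gm22513, Gm23238, Gm24305 was the same in both.

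The U1b genes, a form described in mouse as more abundant in fetal than in adult tissue, stood far lower. Gm22614 and Gm25890, identical to each other and 99.4% identical to Rnu1b2, were each at 17.47 and 12.73 TPM. Rnu1b6, Gm24830 and Gm26232, also identical, were each at 6.41 and 4.17 TPM, from 27.63 and 17.22 counts in sum. Rnu1b1 and Rnu1b2 did not meet the rule, with 2.94 counts each in replicate 1 and 0 in replicate 2. The 3 genes of the Rnu1b6 sequence summed to 19.23 and 12.51 TPM, beside the 5915.35 and 5684.84 TPM of the Rnu1a1 sequence in the same libraries.

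U2 is the RNA that selects the branch point. Its 11 genes made up the family with the highest summed TPM, 11344.7 in replicate 1 and 10049.84 in replicate 2, a mean of 10697 ± 916 TPM (SD, n = 2). The ratio of summed U2 to summed U1 TPM was 1.5 and 1.38. Rnu2-10 is 191 nucleotides long and Rnu1a1 164. Whether RNAs of these lengths entered the libraries equally well was not tested. The ratio thus compares listed TPM and does not measure the amounts of U2 and U1 in the tissue. Rnu2-10 and 3 identical copies, Gm23849, Gm23971 and Gm24950, were each at 1265.19 and 1092.11 TPM. Gm23444 on chromosome 11 and Gm23472 on chromosome 1, which share G109C, were each at 2513.43 and 2425.31 TPM.

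The base at position 109 divides most of the U2 counts in the deposited tables into 2 forms. Genes that follow the Gm23472 letter there (Gm23444, Gm23472, Gm24497, Gm25939 and Gm25360) held 55.1% of the U2-close counts in replicate 1 and 56.2% in replicate 2. In each library these 5 genes, none of which has a family symbol, held more counts than the other 6. Gm25939 differs from Gm23472 by T69C and C78T and was at 737.64 and 676.55 TPM, with a posterior SD of 3.86 and 3.4 reads on 1456.33 and 1279.01 counts, so its reads were assigned with little doubt. Gm25360 differs by C78T, A95G and C154T and was at 103.35 and 86.82 TPM. Gm26316 differs from Rnu2-10 by C170T and was at 24.33 and 25.98 TPM, and Gm22973, with 9 differences, was at 5.57 and 4.76 TPM. The mice carry a CAST/EiJ genome beside that of the C57BL/6J reference, and how CAST/EiJ letters at these positions were assigned was not tested.

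Gm24497, a U2 gene, had the largest posterior SD relative to its count among the 36 genes in both libraries. It differs from Gm23472 by C186A alone and was listed at 762.47 counts in replicate 1 and 69.27 in replicate 2, 386.19 and 36.67 TPM. The authors' posterior SD of these counts was 790.74 and 1006.16 reads, larger than the counts themselves. Their posterior mean counts were 2277.42 and 2651.76, the opposite order. In replicate 2 the listed TPM lay below the lower bound of the deposited TPM interval, which ran between 282.192 and 2267 TPM.

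**Figure D2:**
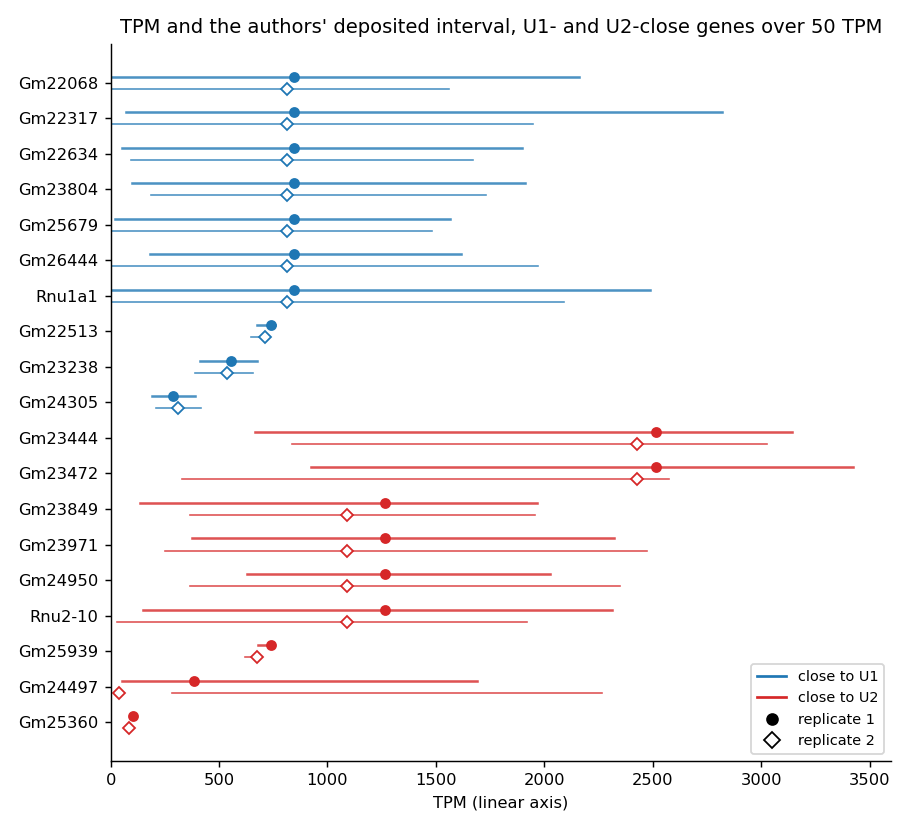
TPM (linear axis, points) of the 19 U1- and U2-close genes with a mean over 50 TPM, with the interval bounds deposited by the authors (lines; the confidence level behind them is not known) for replicate 1 (filled circles) and replicate 2 (open diamonds). Gm22513, Gm25939 and Gm25360 have narrow intervals, and the replicate 2 value of Gm24497 at 36.67 TPM lies outside its own interval.

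A pair of genes 141 nucleotides long on chromosome 5 came next in summed TPM, with the same limit on comparing RNAs of different lengths. No named snRNA of the annotation was close to them: the best identity was 52.2%, to Rnu1b6. The annotation holds 0 snRNA genes with a U4 symbol, so this comparison could not place the pair in U4. Gm24265 lies at chr5:115489459-115489599 and Gm24407 at chr5:115490254-115490394, both on the plus strand. Gm24407 differs from Gm24265 by G88A and C99A. Its neighbour's sequence is shown because it was among the 3 highest members by TPM and has no family symbol, with no letters in capitals.
Gm24265: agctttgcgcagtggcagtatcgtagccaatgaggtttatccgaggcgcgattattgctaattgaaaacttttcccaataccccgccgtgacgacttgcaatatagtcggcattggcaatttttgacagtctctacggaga
Gm24265 was at 1342.74 and 1184.42 TPM, from 1210.24 and 1022.2 counts. Gm24407 was at 1143.61 and 949.89 TPM, from 1030.76 and 819.8 counts. The posterior SD was under 1 read for both in each library, so the 2 differing letters were enough for the quantification to separate them. Together they held 11.6% and 10.9% of the TPM of the 36 genes, and the summed U2 TPM was 4.56 and 4.71 times theirs.

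The minor spliceosome RNAs were detected at low counts. Rnu12, at chr15:83149644-83149794 on the plus strand, pairs with the branch point of minor introns and was at 21.51 and 18.72 TPM from 24 and 20 counts. Rnu11, at chr4:132270080-132270213 on the minus strand, recognises their 5′ splice site and was at 3.99 and 2.78 TPM from 3 and 2 counts. Gm25541, at chr2:27539805-27539930 on the minus strand, has no close named snRNA (52.6% identity to Rnu6 at best) and was at 44.87 and 23.43 TPM from 26 and 13 counts. The named genes compared were of U1, U2, U5, U6, U7, U11 and U12, so the comparison could place Gm25541 in no other class. The sequences of Rnu12, Rnu11 and Gm25541 are shown because each is present once among the annotated snRNA genes, and the posterior SD of their counts was 0 in both libraries. Capitals mark AAGGAAA in Rnu12, which pairs with the minor branch point, and in Rnu11 the first 7 letters AAAAAGG, which include those that pair with the minor 5′ splice site, and TTTTTGG of the Sm site.
Rnu12: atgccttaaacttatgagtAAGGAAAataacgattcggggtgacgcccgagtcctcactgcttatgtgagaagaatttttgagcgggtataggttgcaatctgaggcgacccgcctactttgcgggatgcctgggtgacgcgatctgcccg
Rnu11: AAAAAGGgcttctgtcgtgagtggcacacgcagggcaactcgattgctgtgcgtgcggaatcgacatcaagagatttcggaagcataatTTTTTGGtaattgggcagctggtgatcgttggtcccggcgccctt
Gm25541: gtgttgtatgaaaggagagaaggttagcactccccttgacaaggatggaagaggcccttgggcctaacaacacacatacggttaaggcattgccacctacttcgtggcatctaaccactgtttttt
With Rnu11 at 3 counts and 2 counts, the libraries are not distinguishable for it at this depth. The level of Rnu12 was within counting error between libraries as well, with a log2 ratio of -0.15 (counting SE 0.44).

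Rnu5g, Rnu6, Rnu6-ps2 and Rnu7 were all listed at 0 counts in both libraries. U5 holds the exon ends in place and U6 sits in the active centre of the major spliceosome, so these zeros concern RNAs that all nucleated cells use. The sequence of Rnu7 (chr6:124741225-124741286, minus strand) is printed for its length, with no letters in capitals.
Rnu7: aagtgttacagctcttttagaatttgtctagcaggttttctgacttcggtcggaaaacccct
Rnu6 is 107 nucleotides long, Rnu5g 116 and Rnu7 62. In the deposited gene tables the effective length, the number of positions where a read can start, is the annotated length minus 99, which leaves 8 positions for Rnu6, 17 for Rnu5g and none for Rnu7. One read would be worth 5.82 TPM and 6.08 TPM for Rnu6 in replicate 1 and replicate 2, and a count of 0 allows up to 3 counts or 17.5 TPM and 18.2 TPM, for counting error only. For Rnu5g the same floor is 8.22 and 8.59 TPM, and for Rnu7 no level can be given. The amount of these RNAs in cortex was not measured in any other way here.

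Counts in the class differed by length. None of the 409 annotated snRNA genes of exactly 107 nucleotides had a count in either library, and none of the 193 genes with an effective length of 0 had one. Of the 881 genes of 100 to 119 nucleotides, 4 had a count and 1 met the rule. This was Gm22540, 117 nucleotides long, at 7.77 and 5.41 TPM from 3 and 2 counts. Of the 122 genes of 160 to 179 nucleotides, 28 had a count and 16 met the rule, and of the 38 genes of 180 nucleotides or more, 15 had a count and 12 met it. The median annotated length was 164.5 nucleotides for the 36 genes, and 107 for all 1383. The letters ACAGAGA, which in U6 pair with the 5′ splice site, were present in 1 of the 36 genes, against 42.2% of all annotated snRNA genes.

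**Figure D3:**
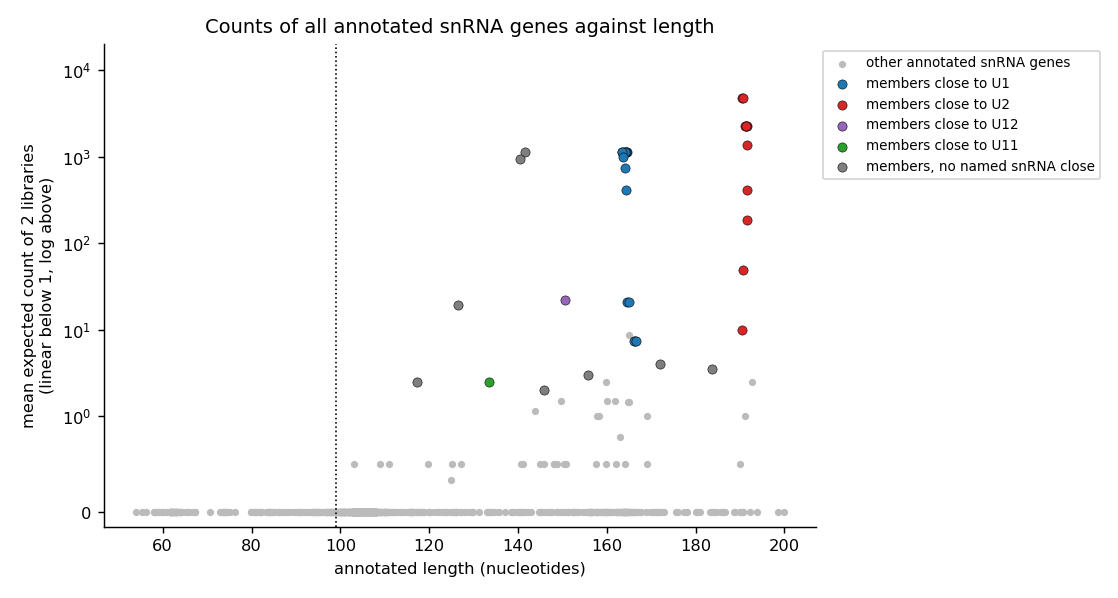
Mean expected count of the 2 libraries (linear below 1, log above) against annotated length for all 1383 snRNA genes, with the 36 members coloured by closest named family; the dotted line marks 99 nucleotides, at and below which the effective length is 0. The genes with over 100 counts stand at 141, 164 and 191 nucleotides, and no gene left of the line has a count.

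A second quantification that the authors deposited, made directly from the reads per the deposited text files, listed all 1383 snRNA genes at 0 in both libraries. It also held no count for any of 6812 genes of 200 nucleotides or less with 1 transcript, 435 of which had a count in the gene tables. Rn7sk, the 331-nucleotide RNA that restrains transcription elongation, had 2.66 and 0 estimated counts there, beside 212574.52 and 211769.19 expected counts in the gene tables. Levels of the snRNAs therefore rest on the gene tables alone. In those tables the misc_RNA genes, which include Rn7sk and the signal recognition particle RNAs, held 30.3% and 31.2% of the gene TPM, so the 36 snRNA genes were a small part of the structural RNA counted.

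Most members lie in tandem groups. Of the 36 genes, 25 fall into 6 clusters whose neighbours are within 250 kb. The U1 genes of the Rnu1a1 type sit in chr12:54696782-54738622 with 7 genes and in chr11:87422867-87426879 with 2, and the U1b genes in chr3:96328425-96488893, where 5 of 8 annotated snRNA genes met the rule. U2 genes sit in chr11:101604850-101658428 with 5 genes and in chr1:72226240-72255198 with 4. The chromosome 12 cluster was listed at 5253.11 and 5084.11 TPM and the chromosome 11 pair at 1690.1 and 1624.24 TPM, while the U1b cluster was listed at 54.17 and 37.97 TPM. As some copies in different clusters are identical, the division of their reads between the chromosome 12 and chromosome 11 loci does not measure either locus. Gm23238, Gm23444, Rnu11, Rnu12 and 7 other members lie outside the clusters.

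Of the 36 genes, 10 (27.8%) lie within an intron of an annotated gene on the same strand and 5 (13.9%) overlap a gene on the opposite strand, against 22.6% and 24.5% of all annotated snRNA genes. None overlaps an exon on its own strand. Among the 10 are Rnu1a1 and Gm22068 in Tex14, and Gm23472, Gm24497 and Gm25939 in D230017M19Rik, whose host genes were at 0.09 to 0.62 TPM. Gm25939, whose reads could be told apart, was at 737.64 TPM in replicate 1, where its host was at 0.62 TPM. The 4 members with the lowest mean TPM all lie in introns of host genes that were expressed in these libraries: Gm23887 in Stk38, Gm24041 in Tmem65, Gm24056 in Rbfox2 and Gm22958 in Fam19a2. The hosts stood between 18.73 TPM (Stk38) and 112.15 TPM (Rbfox2), the 4 snRNA genes between 1.64 and 3.42 TPM. Each of the 4 had 2 to 5 reads per library, and whether these reads came from precursor RNA of the host was not tested.

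Gm22958 (chr10:123432566-123432749, plus strand), the lowest member by mean TPM at 2.19 and 1.72 TPM, is shown because it begins as a U2 gene and then departs from it. Capitals mark its first 53 letters, which equal those of Rnu2-10 except for 1 mismatch and hold GTAGTA, and the rest of its 184 letters carries no TTTTTGG.
Gm22958: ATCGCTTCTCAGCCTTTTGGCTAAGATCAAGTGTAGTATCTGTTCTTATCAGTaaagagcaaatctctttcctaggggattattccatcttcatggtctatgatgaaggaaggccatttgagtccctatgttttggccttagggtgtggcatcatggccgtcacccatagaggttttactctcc
Beside it, the lowest members inside the threshold were Gm24056 at 1.98 and 2.07 TPM and Gm24041 at 1.64 and 3.42 TPM. The genes just outside were Gm22611 at 1.83 and 0.95 TPM, Gm23509 at 3.06 and 0.8 TPM, and Gm23692 at 1.53 and 0.8 TPM. A single read separates these on both sides, as Gm22611 had 2 and 1 counts and Gm24056 2 and 2. In all, 22 snRNA genes reached 1 TPM in only 1 of the libraries. One of them, Gm22042, is 98.8% identical to Rnu1b2 and was listed at 0 counts in replicate 1 and 17.26 in replicate 2 with posterior SDs of 6.96 and 9.21 reads.

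The 2 libraries are replicates of 1 group, so the next comparison describes the agreement of these libraries and no biological contrast. Rounded expected counts of each gene were set against the library sizes (trimmed mean of M-values, TMM, from edgeR) in an exact two-sided binomial test. It takes counting error alone, and p-values were adjusted by Benjamini-Hochberg over the 18887 genes with at least 10 counts in a library. At an adjusted p under 0.05 the test called 20.3% of all tested genes, 8.5% as higher in replicate 2 and 11.8% as lower. Of the 36 members, 27 could be tested: 0 were called higher, 10 were called lower and 17 were not called. At an unadjusted p under 0.05 the numbers were 0 higher and 19 lower. The share of all genes at this unadjusted threshold is not given here, and identical copies, which repeat 1 measurement, are counted separately in these numbers. The log2 ratio of replicate 2 over replicate 1 was below 0 in 25 of 27, with a median of -0.12, and the median over all tested genes was -0.00033. The 10 called genes were 8 close to U2 and the chromosome 5 pair. With library sizes from total gene counts or from spike-ins, 7 members were called lower and 0 higher. The background was then 20.5% of all genes with total gene counts, 14.5% as higher and 6.06% as lower, and 20.1% with spike-ins, 13.6% as higher and 6.51% as lower. With the deposited posterior mean counts, a setting chosen after seeing the data, 29 members could be tested, of which 3 were called higher (Gm24497, Gm23804 and Gm25679) and 13 lower, beside 8.29% of all genes tested as higher and 11.7% as lower.

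For U2 the difference was small. Rnu2-10 and its 3 identical copies each had 2064.61 counts in replicate 2, against 2497.88 in replicate 1. The log2 ratio was -0.27 (counting SE 0.043). Gm23444 and Gm23472 each had 4585.02 counts in replicate 2, against 4962.3 in replicate 1, a log2 ratio of -0.11 (SE 0.03). Gm25939 was at -0.19 (SE 0.055). As identical copies repeat 1 measurement, the counts were also summed over identical sequences, which gave 17 tested sequences with 7 called lower and 0 called higher, beside a background of 20.3% called, 8.49% higher and 11.8% lower. The Rnu2-10 sequence was then at 8258 counts in replicate 2, against 9992 in replicate 1, a log2 ratio of -0.28 (exact binomial test, Benjamini-Hochberg adjusted p = 8.21e-36).

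No U1-close gene was called by itself. The log2 ratio was -0.12 for Rnu1a1 and its copies, -0.11 for Gm22513 and Gm23238, and 0.04 for Gm24305. Summed over its 7 genes, the Rnu1a1 sequence had 7593 counts in replicate 2, against 8251 in replicate 1, a log2 ratio of -0.12 that passed the test (exact binomial, adjusted p = 2.6e-06). Whether U2 and U1 differ in this ratio was not tested.

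The chromosome 5 pair was lower in replicate 2, with log2 ratios of -0.24 for Gm24265 (SE 0.061; exact binomial adjusted p = 0.000738) and -0.33 for Gm24407 (SE 0.068; exact binomial adjusted p = 1.48e-05). Gm24497 had the lowest log2 ratio, -3.19. When the U2 sequences linked by 1 substitution were summed, Gm24497 with the Rnu2-10 and Gm23472 forms and Gm26316, the sum was at 17547 counts in replicate 2, against 20727 in replicate 1, a log2 ratio of -0.24, far from that of Gm24497 by itself. Of 12 sequences tested in this way 5 were called lower and 0 higher, beside 20.3% of all genes called, 8.48% higher and 11.8% lower. Under a dispersion of 0.01, assumed since these data do not measure one, Gm24497 was the 1 member still called. The background was then 0.964% of all genes, 0.529% higher and 0.434% lower.

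**Figure D4:**
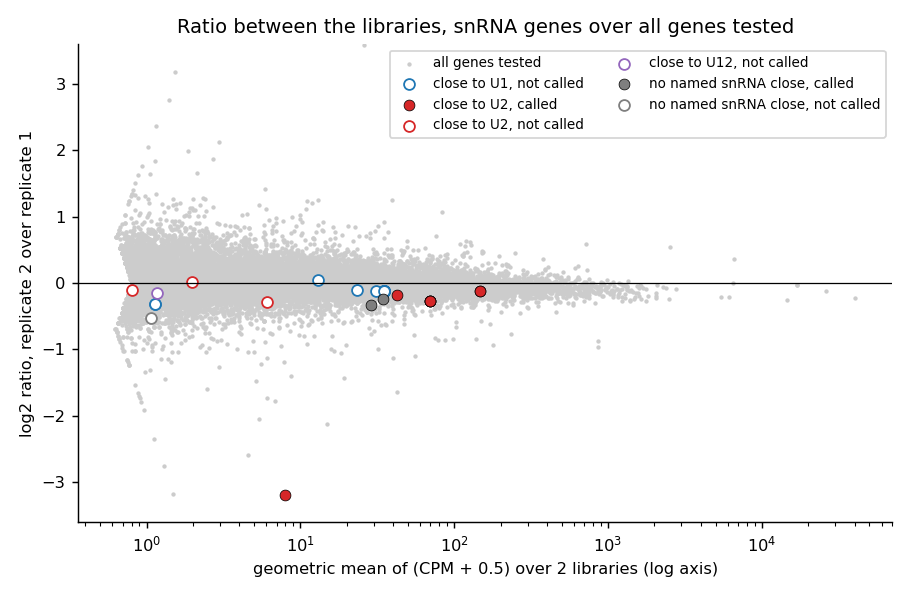
Log2 ratio of replicate 2 over replicate 1 against the geometric mean of CPM + 0.5 (log axis; CPM is the count scaled to library size) for all 18887 tested genes (grey; 2 lie outside the plotted range) and for the 27 tested members, filled where the adjusted p was under 0.05. The members sit just below 0, between -0.53 and 0.04, except Gm24497 at -3.19.

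The libraries differed in tissue markers as well. The 6 myelinating oligodendrocyte markers were all called lower in replicate 2, with a median log2 ratio of -0.90, as were the 6 striatal markers, with a median of -0.81, while 6 of 7 choroid plexus markers were called higher and Enpp2 lower, Ttr being at 131 TPM in replicate 2, against 9.86 TPM in replicate 1. Over all genes tested, 8.5% were called higher and 11.8% lower. Summed levels of the lists were 1204.07 and 2171.47 TPM for myelin, 138.75 and 228.53 TPM for striatum, and 246.49 and 146.11 TPM for choroid plexus, in replicate 2 and replicate 1, and none of these markers was at 0. Slc17a7, the glutamate transporter of cortical excitatory neurons, was at 742.75 and 771.25 TPM. The part of this in the snRNA ratios was not tested, and fewer cells of a type and less RNA per cell cannot be told apart in bulk tissue. The libraries held 32013997 and 33362704 gene counts in replicate 2 and replicate 1, and spike-ins were 0.361% and 0.359% of counts.

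The protein genes that build, export and use the particles were measured in the same libraries, as 9 lists with 130 genes. Of these, 129 reached 1 TPM in both libraries; Zfp473, a zinc finger protein of the U7 particle, was at 0.07 and 0.18 TPM. Between the libraries 18 were called higher and 6 lower in replicate 2, 18.5% of the 130 beside the 20.3% of all tested genes, and none of them by 1.5-fold or more. With library sizes from total gene counts the calls were 29 higher and 3 lower, beside 14.5% and 6.06% of all genes tested. The median log2 ratio of the 130 genes was 0.03 with TMM library sizes.

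Of the 8 Sm core genes, which encode the ring shared by U1, U2, U4, U5, U11 and U12, the highest was Snrpn, the SmN protein found mainly in neurons, at 466.38 and 442.42 TPM, followed by Snrpb at 47.2 and 48.71 TPM. Snrpn was the 1 Sm gene called, with a log2 ratio of -0.14 (SE 0.015). Among 9 genes for U1 proteins the highest were Snrnp70, which binds the first stem of U1, at 133.76 and 176.39 TPM and Luc7l2 at 63.73 and 71.96 TPM. Of these 9, 6 were called higher in replicate 2, 0 lower, with a list median of 0.23 and a log2 ratio of 0.48 (SE 0.029) for Snrnp70. Of all genes tested 8.5% were called higher in replicate 2 and 11.8% lower. Among 15 genes for U2 proteins, led by Sf3b2 at 89.56 and 91.61 TPM and U2af2 at 71.17 and 82.05 TPM, 0 were called in either direction.

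The tri-snRNP list of 16 genes, led by Prpf8, the central scaffold of the spliceosome, at 56.4 and 54.9 TPM and Eftud2 at 50.35 and 53.37 TPM, had 1 gene called lower, Prpf8 at -0.10. Prpf8 had 8877 and 8272 counts in libraries where Rnu5g and Rnu6 had none. On Rnu5g and Rnu6 a read could start at only 17 and 8 positions, so these counts are not comparable with those of Prpf8. The 14 genes for the U6 LSm ring and U6 maturation were led by Ssb, the La protein that binds the end of new polymerase III transcripts, at 60.5 and 65.73 TPM and Lsm4 at 34.12 and 32.97 TPM, with 2 called higher. Of 13 minor spliceosome genes, 3 were called higher and 1 lower, and the highest were Zcrb1 at 34.77 and 35.56 TPM and Zrsr1 at 27.44 and 25.13 TPM. The 8 genes of U7 and histone 3′ end processing had 1 called lower, Lsm11, a subunit of the U7 ring, at 35.92 and 33.62 TPM, and were led by Sympk at 48.24 and 51.38 TPM. Over all genes tested, 8.5% were called higher and 11.8% lower.

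The 26 genes for snRNA transcription cover the promoter-binding SNAPc and the Integrator complex that cuts the 3′ end of new snRNAs. Of these 26, 6 were called higher and 0 lower, beside 8.5% and 11.8% of all genes tested. The highest were Ints1 at 48.88 and 48.25 TPM and Ints10 at 35.15 and 43.69 TPM. Of 21 genes for the SMN complex, export and the Cajal body, where Sm rings are loaded and snRNAs matured, 1 was called higher and 2 lower, with Strap at 56.76 and 61.01 TPM and Kpnb1 at 54.73 and 52.36 TPM as the highest. List medians lay between 10.9 TPM for the minor spliceosome and 36.8 TPM for the U1 proteins, as means of both libraries.

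**Figure D5:**
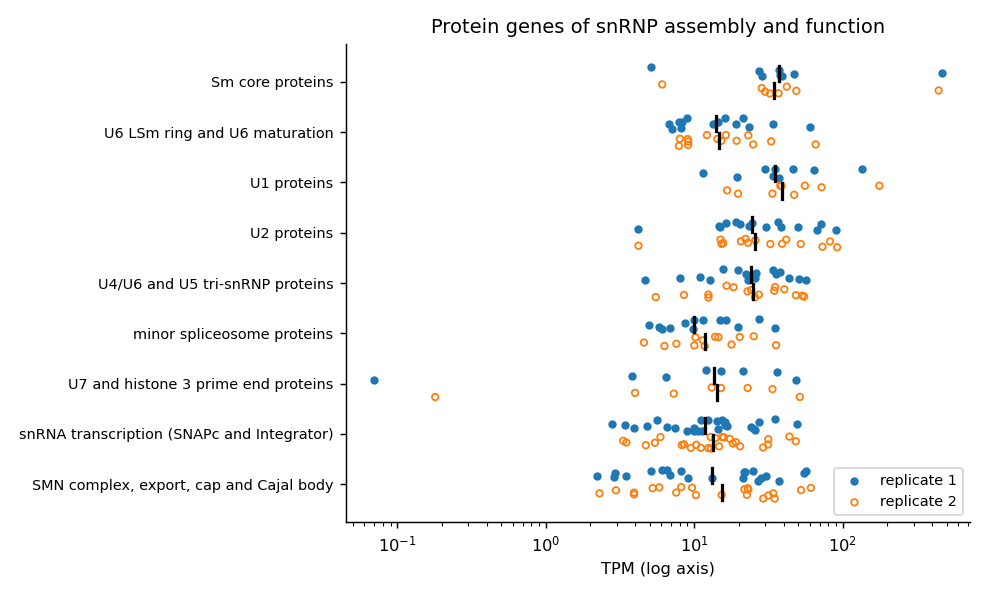
TPM (log axis) of the 130 protein genes in 9 lists, in replicate 1 (filled) and replicate 2 (open), with black bars at the list medians. The medians of the libraries lie side by side in each list, the rightmost points are Snrpn, at 466.38 and 442.42 TPM, and the points under 1 TPM are Zfp473.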

How the data were processed

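Per the labels, total RNA of left cerebral cortex was depleted of ribosomal RNA and sequenced in 2 biological replicates. Expected counts and TPM in the gene tables were deposited by the authors from a transcriptome alignment (assembly mm10, annotation GENCODE M21; per the deposited text files), as were the posterior mean and SD of the counts and the TPM interval bounds. A second table of estimated counts and TPM was made by the authors from the reads. For tools, settings and strand handling, the names are not given by the labels or files used here. TPM sums to 1000000 over the rows of a table, spike-ins included, per the deposited values, and divides by the effective length (length minus 99 nucleotides).

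The depth was 33362704 expected counts on genes in replicate 1 and 32013997 in replicate 2. All 55536 gene identifiers matched the annotation. A further 26249 rows that name no gene held 5 and 4.84 counts, 1.49e-05% and 1.51e-05% of all counts, and stayed out of totals and tests, as did 96 ERCC rows.

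Members were found from the biotype and from TPM of 1 or more in both libraries. Members and gene lists were chosen with earlier results of these data known. Transcripts were aligned to those of 10 named snRNA genes, none of them of U4, with Biopython 1.88 (global alignment, match 1, mismatch -1, gap opening -2, gap extension -0.5), and a family needed 80% identity. Expected counts were rounded and compared between libraries by an exact binomial test, two-sided, against TMM library sizes (edgeR 4.0.16, R 4.3.3), with Benjamini-Hochberg adjustment over genes that had at least 10 counts in 1 of the libraries; the log2 ratio is on the scale of CPM + 0.5 and its SE covers counting error only. p-values compare these libraries and measure no spread between animals. The test was checked on simulated counts. The genes named are those with a family symbol, the 12 highest by TPM and by CPM, the up to 10 called with the largest ratio, the 3 on each side of the threshold, and the 2 highest of each protein list; other members are named since every member is accounted for. Rnu5g, Rnu6 and Rnu6-ps2 and the marker Slc17a7 were named after their values were seen. Cenatac was found under its older symbol Ccdc84 only, and of the fixed list of other structural RNAs (Rn7s1, Rn7s2, Rn7sk, Rpph1, Rmrp and Terc; 7 identifiers), 1 was called higher and 3 lower in replicate 2, with levels of 3.31 TPM for Terc to 130745 TPM for Rn7s1 as means. Of the other marker lists, 0 of 6 excitatory neuron genes were called higher and 5 lower, 0 and 0 of 4 inhibitory, 1 and 2 of 4 astrocyte, 0 and 2 of 4 microglia, and 0 and 0 of 4 endothelial genes. Beside these lists and the structural RNAs, 8.5% of all genes tested were called higher and 11.8% lower. The sequences of some snRNAs are not reported here. A search for TATA letters before the start sites was not run, as promoters of these genes are not in the tables used. Alternatives were other scalings (total gene counts, spike-in counts, DESeq2 1.42.0 size factors), other filters, an assumed dispersion, and the second quantification; summing of identical or linked sequences, posterior mean counts and leaving out Gm24497 were chosen after seeing the data.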

Additional observations from a re-analysis of the deposited data

How the results depend on the processing

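The number of snRNA genes at 1 TPM or more in both libraries, 36, was 43 at 0.5 TPM, 27 at 5 TPM and 26 with at least 10 counts in both, and 46 and 48 when only replicate 2 or only replicate 1 was asked. Under the second quantification it was 0, and so were the share of counts and of TPM held by the members and the summed CPM and TPM of U1, U2, U11, U12 and the genes of no family symbol, as that table lists every snRNA gene at 0. Calls of members in it could therefore not be computed. The share of all gene counts was 0.101% as the mean of both libraries and between 0.0956% and 0.106% without one of them. Using all annotated snRNA genes moved no sum by more than the spread between libraries.

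Members called lower numbered 10 with TMM, 7 with total gene counts or spike-in counts (Gm23444, Gm23472 and Gm25939 were not called then), 10 with DESeq2 size factors (11.4% of all genes tested were lower) and with both other filters (7.18% with no filter and 13.2% from 20 counts), 7 with identical sequences summed, 5 with sequences linked by 1 substitution summed, and 1 with an assumed dispersion of 0.01. Members called higher numbered 0 in each of these fits. With posterior mean counts 13 of 29 members tested were called lower and 3 higher, against 10 and 0 of 27 tested with the expected counts; of all genes tested, 11.7% were then called lower and 8.29% higher. The log2 ratio then turned to 0.22 for Gm24497, 0.18 for Gm23804, 0.18 for Gm25679 and 0.049 for Rnu1a1, the first of which had -3.19 and the others -0.12; these 4 genes share reads with identical or nearly identical copies. For the protein lists, 18 higher and 6 lower became 29 and 3 with total gene counts, 28 and 3 with spike-in counts, 0 and 0 with the assumed dispersion, and 15 and 8 in the second quantification. Of all genes tested, 7.98% were called higher and 12.8% lower in the second quantification, and 13.6% and 6.51% with spike-in counts. With the assumed dispersion these shares were 0.529% and 0.434%. With total gene counts the median log2 ratio of all tested genes was 0.0575, so the split of calls moved, with 14.5% of all genes higher and 6.06% lower.

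No paired analysis was possible because both libraries belong to 1 group, and leaving out a library leaves no ratio. Genes of under 10 counts in both libraries, 9 of the 36, could not be compared, and RNAs of 107 nucleotides or less had at most 8 positions where a read could start.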
